A study of Mus musculus with 22 samples.

Results

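The 8 genes described here encode enzymes that make or consume arginine, creatine, and polyamines in the kidney: Gatm, Gamt, Ass1, Asl, Arg2, Odc1, Sat1, and Oat. They were taken by symbol from the count table of the series, and all 8 of the 32858 genes listed there were found and had enough counts to be tested. Kidney RNA was sequenced from 22 male C57Bl6/J mice of 8 to 10 weeks, with 5 mice on vehicle, 6 on KW6002, 5 on cisplatin, and 6 that received both drugs (co-treated mice). KW6002 (istradefylline) blocks the adenosine receptor encoded by Adora2a and was given at 3 mg/kg from day -5 to day 7 in a carrier of 15% DMSO, 15% Cremophor, and 70% saline. Cisplatin, a platinum drug that injures the proximal tubule, was injected 6 times at 3 mg/kg, and kidneys were taken 72 hours after the last injection. The question the design puts to these genes is how far cisplatin moved them and whether KW6002 changed that response. The results hold for 1 strain and 1 sex.

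The kidney is a main source of arginine for the body. Proximal tubule cells take up citrulline, join it to aspartate with argininosuccinate synthase (Ass1), and split the product with argininosuccinate lyase (Asl) to release arginine. Arginine is then drawn in several directions. Arginine:glycine amidinotransferase (Gatm) uses it to make guanidinoacetate, which guanidinoacetate methyltransferase (Gamt), most abundant in liver, turns into creatine. The mitochondrial arginase (Arg2) splits arginine into urea and ornithine. Ornithine is passed on by ornithine aminotransferase (Oat) toward proline and glutamate, or by ornithine decarboxylase (Odc1) to putrescine, the first polyamine. Spermidine/spermine acetyltransferase (Sat1) acetylates the longer polyamines for breakdown and export.

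Totals ran from 26471762 to 40510754 counts per mouse, and 17131 genes were tested. Expression is given as CPM, counts scaled to a common library total after TMM, a correction for differences in RNA composition. Log2 fold changes, their standard errors (SE), and p-values came from 1 edgeR quasi-likelihood fit over all 22 libraries, with p-values adjusted by the Benjamini-Hochberg method over all genes tested. A gene passed where its adjusted p was under 0.05. It was called where the adjusted p was under 0.01 and the change was larger than 1 on the log2 scale. The tissue label was checked against cell markers: those of the proximal tubule summed to between 21308.9 and 23143.5 CPM in vehicle mice, whereas 4 hepatocyte markers summed to at most 14.9 CPM, with Cps1 at 0 in at least 1 library. Each label opens with a number whose meaning the labels do not give. It is in the 300s for vehicle replicates 1 to 3 and KW6002 replicates 1 to 3 and in the 500s for the remaining 16 libraries, among them all those given cisplatin, so values within a number series are given where they bear on a result.

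Promoter sequences of 4 of the genes are shown first. RefSeq promoter windows of build GRCm38.p6, which has the coordinates of mm10, were matched for 6 of the 8 genes, all but Asl and Arg2. Only the bases before both the RefSeq and the GENCODE start of each gene were kept, and capitals mark GGGCGG, the GC box bound by Sp1, or CCAAT, each on either strand. They are shown because Gatm fell most with cisplatin, its partner Gamt fell less and did not pass with KW6002 added, Ass1 came back in part, and Sat1 rose in both. The windows are chr2:122611304-122611527 (minus strand) for Gatm, chr10:80261013-80261262 (minus) for Gamt, chr2:31470020-31470206 (plus) for Ass1, and chrX:155216450-155216699 (minus) for Sat1.
Gatm: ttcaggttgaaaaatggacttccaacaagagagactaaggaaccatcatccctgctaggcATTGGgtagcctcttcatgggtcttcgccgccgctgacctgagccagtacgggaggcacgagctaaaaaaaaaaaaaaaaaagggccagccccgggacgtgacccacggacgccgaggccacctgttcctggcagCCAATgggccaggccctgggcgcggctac
Gamt: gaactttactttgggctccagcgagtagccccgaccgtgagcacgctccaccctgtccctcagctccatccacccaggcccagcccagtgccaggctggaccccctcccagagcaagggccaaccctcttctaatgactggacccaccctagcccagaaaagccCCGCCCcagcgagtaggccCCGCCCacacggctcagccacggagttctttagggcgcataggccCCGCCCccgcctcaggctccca
Ass1: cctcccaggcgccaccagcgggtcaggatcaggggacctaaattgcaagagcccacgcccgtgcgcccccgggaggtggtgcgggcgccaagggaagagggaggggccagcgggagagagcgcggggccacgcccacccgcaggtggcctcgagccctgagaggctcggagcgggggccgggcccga
Sat1: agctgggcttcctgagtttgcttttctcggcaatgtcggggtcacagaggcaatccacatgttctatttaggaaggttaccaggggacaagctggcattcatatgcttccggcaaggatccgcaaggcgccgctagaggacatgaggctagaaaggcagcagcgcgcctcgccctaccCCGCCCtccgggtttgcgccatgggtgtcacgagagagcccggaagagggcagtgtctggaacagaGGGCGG
The 224 bases of Gatm held 2 matches to CCAAT, a motif present in 31.5% of all promoter windows cut to that length, and no GC box. Gamt held 3 GC boxes and Sat1 held 2 in 250 bases, where 32.7% of all windows held at least 1. The 187 bases of Ass1, with a GC content of 75.4%, held neither motif, and none of the 4 windows held the E-box CACGTG, the TATA-box core TATAA, or the HNF1 motif core GTTAAT, each searched on both strands. The Gatm and Sat1 windows had GC contents of 57.6% and 59.6%, and the Gamt window 66.8%. These matches describe the letters of the windows only.

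In vehicle kidneys the first enzymes of arginine and creatine synthesis, Ass1 and Gatm, were the most abundant of the 8. Levels between genes were compared as CPM per kilobase of exon, with all exons of a gene joined. Ass1 stood at 378 ± 56.7 (SD, n = 5) CPM per kilobase and Gatm at 295 ± 24.5, and the mice of these neighbours overlapped. Oat followed at 97.4 ± 4.95, apart from both. Asl (59.4 ± 7.92), Sat1 (57.8 ± 4.60), and Odc1 (54.7 ± 7.27) overlapped one another. Gamt, the second step of creatine synthesis, was far lower at 11.8 ± 1.62, and Arg2 was lowest at 3.40 ± 1.09 CPM per kilobase.
With cisplatin this order was upturned. Arg2 moved from last to first at 145 ± 31.0 (SD, n = 5) CPM per kilobase, overlapping Sat1 at 95.0 ± 9.30, and Gatm moved from the second place to the seventh at 11.4 ± 2.08. In co-treated mice Ass1 was again first at 231 ± 24.0 (SD, n = 6), Sat1 was second at 137 ± 11.7, and Gatm stood at 56.2 ± 7.45 with overlap with Arg2 at 41.3 ± 6.97. When the length of the principal transcript was used instead, a choice added after the data had been seen, Sat1 (138 CPM per kilobase) and Asl (119) came before Oat (107) in vehicle kidneys and Sat1 (227) before Arg2 (145) with cisplatin. In co-treated mice the means of Ass1 (329) and Sat1 (328) were then nearly level, and Asl (76.5) came before Gatm (70.7). The counts of the 8 genes together made up 0.251% ± 0.0209 (SD, n = 5) of a vehicle library, 0.225% ± 0.00816 (n = 6) with KW6002, 0.107% ± 0.00478 (n = 5) with cisplatin, and 0.175% ± 0.00751 (n = 6) in co-treated mice.

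**Figure D1:**
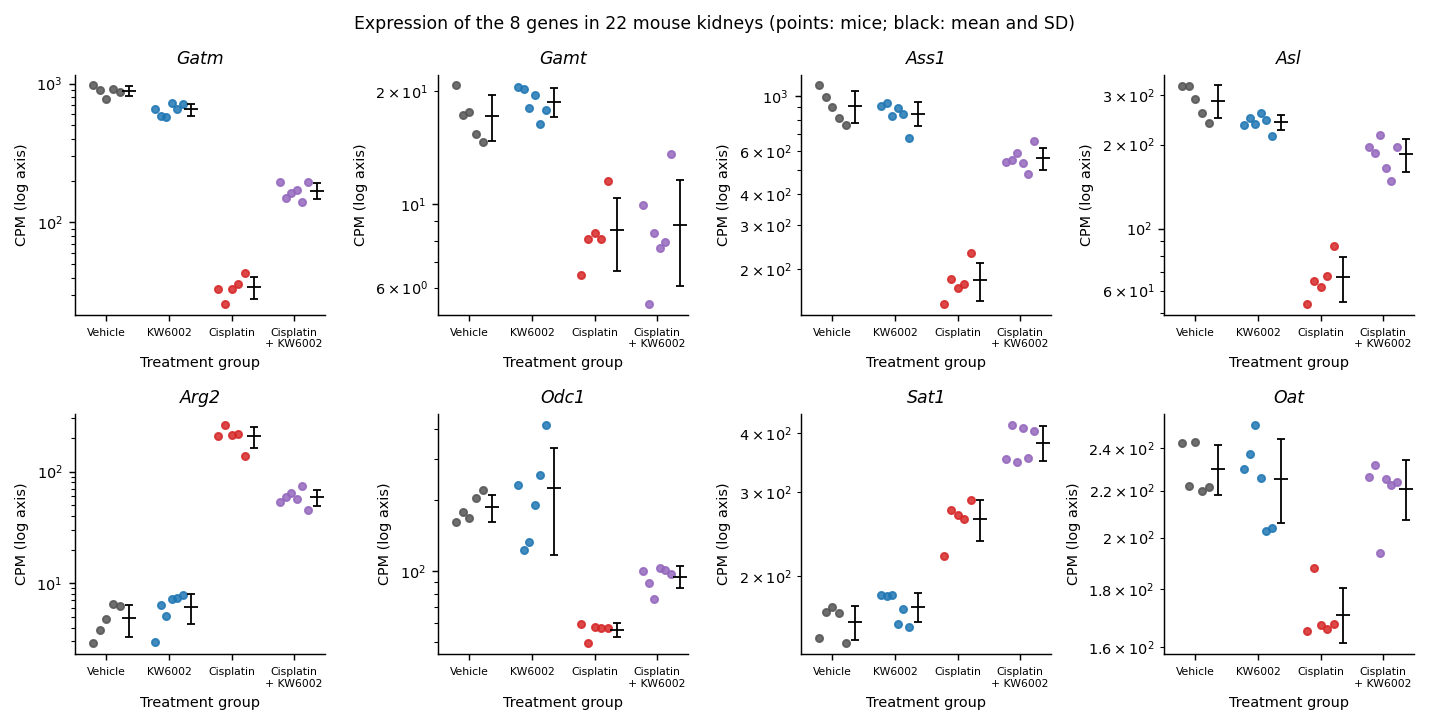
CPM of the 8 genes in each mouse on log axes, by treatment group (5 vehicle, 6 KW6002, 5 cisplatin, 6 cisplatin plus KW6002). Points are mice and black bars the mean and SD. Gatm falls from 769 to 970.1 CPM with vehicle to 25.8 to 43.1 CPM with cisplatin, whereas Arg2 rises from at most 6.52 to at least 139 CPM.

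All 8 genes passed in cisplatin against vehicle. The steps that make arginine and creatine fell with Odc1 and Oat, while Arg2 and Sat1 rose. That is 6 lower and 2 higher, where 35.9% of all genes tested were lower and 34.6% higher at this threshold. Of the 8, 6 were called, beside 24.1% of all genes, and for none of the 8 did the cisplatin and vehicle mice overlap, beside 55.3% of all genes without overlap. Gamt, at -1.01, lay at the fold threshold. Its log2 fold change was -0.79 with library size scaling and -0.82 within the 500s, which left 5 called, and it also came short of the threshold without any 1 of vehicle replicates 1 and 3 and cisplatin replicates 1 to 4, at up to -0.92. The median log2 fold change was -1.37 over the 8 genes and -0.01 over all genes tested. With library size scaling alone the median of all genes moved to 0.20, and 62.57% of called genes were higher in place of 50.01%, yet each of the 8 kept its direction and passed.
When KW6002 was added to cisplatin, 6 of the 8 genes were higher and 1 was lower than with cisplatin alone. The background was 28.6% of all genes higher and 27.2% lower. Of the 8, 4 were called, beside 10.3% of all genes, and 7 did not overlap between these groups, beside 37.8% of all genes. Gatm, Ass1, Asl, Arg2, Odc1, and Oat shifted back toward vehicle, and the share of all genes that did so was not counted. Sat1, already raised by cisplatin, went further up. These comparisons share the cisplatin mice, so their values are set side by side for each gene and are not independent of one another.
In these whole-kidney RNA samples, fewer cells of a type and less RNA per cell cannot be told apart. All 10 proximal tubule markers were lower with cisplatin, and their summed level went to between 4367 and 6617 CPM. Markers of the thick ascending limb (4 of 4) and distal convoluted tubule (3 of 3) were also lower, with sums of 2049.9 to 2365 CPM and 45.6 to 90.7 CPM against 4687 to 7753 CPM and 1589 to 1654 CPM with vehicle. Fibroblast markers were higher (4 of 4), with sums of 534.5 to 745 CPM against 114 to 248 CPM. Erythroid markers were lower (4 of 4), with sums of at most 0.201 CPM against 62.2 to 389 CPM, and so were 3 of 4 intercalated cell markers. Markers of principal cells, podocytes, endothelium, and macrophages moved in both directions. In co-treated mice the sum of the proximal tubule markers was between 9748 and 14102 CPM, with 8 of 10 higher than with cisplatin alone. The part of these markers in the changes of the 8 genes was not tested, and their values are set beside the genes further on.

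**Figure D2:**
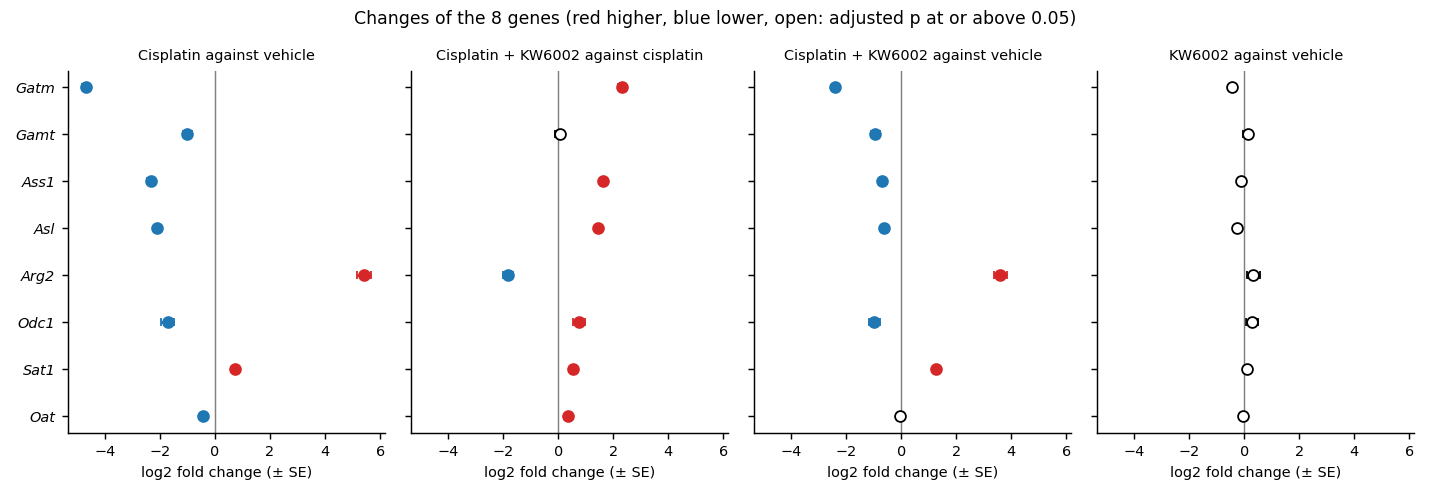
Log2 fold changes of the 8 genes with their SE (horizontal axis) in 4 comparisons of the edgeR fit. Red marks genes that were higher and blue genes that were lower at an adjusted p below 0.05, and open points did not pass. Sat1 is higher with cisplatin and again higher with KW6002 added, and no gene passes for KW6002 against vehicle.

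Gatm (ENSMUSG00000027199), which commits arginine to creatine, spans 122594467 to 122611303 on the minus strand of chromosome 2 in mm10. In the vehicle mice it measured 970.1, 898, 769, 911, and 877 CPM. In the cisplatin mice it measured 33.2, 25.8, 32.9, 36.1, and 43.1 CPM. The co-treated mice ran from 141 to 195 CPM with a median of 167, so that the 3 groups were fully apart. Cisplatin lowered Gatm 25.9-fold, a log2 fold change of -4.69 (SE 0.13, adjusted p = 3.97e-18). Adding KW6002 raised it 4.94-fold over cisplatin alone (log2 fold change 2.30, SE 0.11, adjusted p = 7.21e-13). It stayed 5.24-fold below vehicle in co-treated mice (log2 fold change -2.39, SE 0.11, adjusted p = 3.95e-14).
Gamt (ENSMUSG00000020150), on chromosome 10 from 80258151 to 80261012, completes creatine by methylation. The vehicle mice measured 20.7, 17.2, 17.6, 15.4, and 14.6 CPM and the cisplatin mice 6.50, 8.06, 8.37, 8.08, and 11.6 CPM. Co-treated mice ran from 5.43 to 13.6 CPM with a median of 8.14, across the whole range of the cisplatin mice and below every vehicle mouse. The log2 fold change was -1.01 (SE 0.17, adjusted p = 1.73e-05) for cisplatin against vehicle. For co-treated against cisplatin mice it was 0.05 (SE 0.17, adjusted p = 0.802), the only 1 of the 8 genes that did not pass there. Gamt was still lower in co-treated than in vehicle mice (log2 fold change -0.95, SE 0.16, adjusted p = 2.98e-05).

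Ass1 (ENSMUSG00000076441, chromosome 2 from 31470207 to 31520672) and Asl (ENSMUSG00000025533, chromosome 5 from 130011258 to 130029247) form the arginine-making pair. Ass1 measured 1101, 992, 899, 812, and 762 CPM in vehicle mice. With cisplatin it measured 144, 182, 168, 174, and 231 CPM. Co-treated mice held 482 to 654 CPM with a median of 545, between both groups and apart from each. Asl, at lower levels, followed the same course: 325, 323, 291, 258, and 239 CPM with vehicle and 53.7, 65.0, 61.7, 67.5, and 86.6 CPM with cisplatin. Its co-treated mice ran from 148 to 217 CPM with a median of 191. Cisplatin lowered Ass1 5.08-fold (log2 fold change -2.34, SE 0.12, adjusted p = 8.53e-14) and Asl 4.29-fold (log2 fold change -2.10, SE 0.12, adjusted p = 2.72e-13). KW6002 added to cisplatin raised Ass1 3.11-fold (log2 fold change 1.64, SE 0.11, adjusted p = 1.15e-10) and Asl 2.76-fold (log2 fold change 1.47, SE 0.11, adjusted p = 3.39e-10). In co-treated against vehicle mice the log2 fold change was -0.71 (SE 0.11, adjusted p = 8.65e-06) for Ass1 and -0.64 (SE 0.11, adjusted p = 2.16e-05) for Asl. The vehicle mice with labels in the 300s were higher for both genes than those in the 500s. Within the 500s the log2 fold change for cisplatin was -2.13 for Ass1 and -1.90 for Asl, and both still passed. For co-treated against vehicle mice it shrank to -0.50 for Ass1 and -0.43 for Asl within the 500s, and both passed there too.

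Arg2 (ENSMUSG00000021125, chromosome 12 from 79130777 to 79156301), the arginase of kidney mitochondria, rose with cisplatin and had the largest change of the 8 in that comparison. It measured 2.88, 3.81, 4.81, 6.52, and 6.25 CPM in vehicle mice and 207, 262, 214, 215, and 139 CPM with cisplatin. Cisplatin replicate 5, the lowest for Arg2, was the highest mouse of its group for Gatm, Gamt, Ass1, and Asl. Co-treated mice held 45.2 to 74.5 CPM with a median of 58.4, above every vehicle mouse and below every cisplatin mouse. Cisplatin raised Arg2 42.7-fold (log2 fold change 5.42, SE 0.24, adjusted p = 9.74e-15). KW6002 lowered it 3.52-fold from there (log2 fold change -1.82, SE 0.19, adjusted p = 3.52e-08), and it remained 12.1-fold above vehicle (log2 fold change 3.60, SE 0.23, adjusted p = 1.26e-11). The vehicle mice with labels in the 500s, at 6.52 and 6.25 CPM, were the highest of their group. Within the 500s the rises over vehicle were smaller and still passed. The log2 fold change there was 5.02 (SE 0.25) for cisplatin and 3.21 (SE 0.23) for co-treated mice. Arg2 shares 285 exonic bases with Vti1b on the other strand, and the use of strand in counting is not stated. The mean of Vti1b itself was 70.2 ± 3.45 CPM (SD, n = 5) in vehicle and 72.9 ± 4.47 CPM (SD, n = 5) in cisplatin mice.
Oat (ENSMUSG00000030934, chromosome 7 from 132557478 to 132576398), which moves ornithine toward proline, had the smallest change of the 8 with cisplatin. Vehicle mice measured 242, 222, 243, 220.0, and 222 CPM, and cisplatin mice 165, 188, 168, 166, and 168 CPM. Co-treated mice ran from 194 to 232 CPM with a median of 225, which overlapped the vehicle range of 220.0 to 243 CPM, with 1 mouse below it. The log2 fold change was -0.43 (SE 0.06, adjusted p = 1.71e-06) with cisplatin and 0.37 (SE 0.06, adjusted p = 1.54e-05) for KW6002 added to cisplatin. Against vehicle, Oat in co-treated mice differed by a log2 fold change of -0.06 (SE 0.06, adjusted p = 0.393), and its sign turned to 0.10 with library size scaling alone.

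Odc1 (ENSMUSG00000011179, chromosome 12 from 17544794 to 17551505) opens polyamine synthesis. It measured 161, 179, 168, 204, and 219.7 CPM in vehicle mice and 59.6, 49.1, 57.7, 57.0, and 57.3 CPM in cisplatin mice, a tight low group. Co-treated mice held 76.1 to 103 CPM with a median of 98.5. The groups did not overlap. The log2 fold change was -1.73 (SE 0.22, adjusted p = 3.42e-07) with cisplatin, 0.75 (SE 0.21, adjusted p = 0.00443) for KW6002 added to cisplatin, and -0.98 (SE 0.21, adjusted p = 0.000308) for co-treated against vehicle mice.
Sat1 (ENSMUSG00000025283, chromosome X from 155213132 to 155216449) begins polyamine breakdown. Vehicle mice measured 148, 168, 173, 167, and 145 CPM, and cisplatin mice 221, 275, 269, 263, and 289.6 CPM. Co-treated mice measured 347.2 to 416 CPM with a median of 379, above every cisplatin mouse. Sat1 rose 1.64-fold with cisplatin (log2 fold change 0.72, SE 0.08, adjusted p = 1.52e-08) and a further 1.44-fold when KW6002 was added (log2 fold change 0.53, SE 0.07, adjusted p = 1.90e-06). It stood 2.38-fold above vehicle in co-treated mice (log2 fold change 1.25, SE 0.07, adjusted p = 4.32e-12).
In co-treated against vehicle mice, 5 of the 8 genes were lower and 2 higher, beside 29.9% and 29.8% of all genes tested. Arg2, Sat1, and Gatm were the 3 that were called, beside 13.4% of all genes, and 7 of the 8 did not overlap between these groups, beside 37.5% of all genes. Odc1 (-0.98) and Gamt (-0.95) lay just under the fold threshold. Within the 500s Odc1 was at -1.17 and met the rule for a call, and Gamt was at -0.76. With single mice left out, Odc1 ran from -1.03 to -0.91 and Gamt from -1.12 to -0.85. With library size scaling alone the median of all genes in this comparison was 0.16, and 56.54% of called genes were higher in place of 43.43%. The fat markers were lower in co-treated mice, where they summed to 37.9 to 211 CPM against 336 to 630 CPM with cisplatin alone and 133 to 995 CPM with vehicle. With the mean of the fat markers as a covariate, 7 of the 8 genes passed against cisplatin and 7 against vehicle, the same numbers as without it. Fibroblast markers were also lower with KW6002 added (4 of 4, with sums of 216 to 391 CPM against 534.5 to 745 CPM), and their part was not tested.

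In mice without cisplatin, 0 of 8 genes passed for KW6002 against vehicle. The background was 0.0175% of genes higher and 0% lower, with 0% called, although 1930 genes had an unadjusted p below 0.05. Gatm came nearest. KW6002 mice held 573 to 724 CPM with a median of 657, each below every vehicle mouse. It was the only 1 of the 8 whose groups did not overlap, beside 1.38% of all genes. The log2 fold change was -0.44 (SE 0.10, adjusted p = 0.108). DESeq2 gave -0.44 with an adjusted p of 0.0195. Within the 300s the log2 fold change was -0.53 and within the 500s -0.35, and the mice did not overlap in either series.
Odc1 spread widely with KW6002, from 122 to 418 CPM with a median of 211, around the vehicle range of 161 to 219.7 CPM. Its log2 fold change was 0.27 (SE 0.21, adjusted p = 0.640), with -0.053 within the 300s and 0.45 within the 500s. For Gamt, Ass1, Asl, Arg2, Sat1, and Oat the log2 fold changes lay between -0.26 for Asl and 0.32 for Arg2, with overlap between the groups. Asl was at -0.37 within the 300s, without overlap, and at -0.051 within the 500s, with overlap, and passed in neither. Within a single series the mice also did not overlap for Sat1 in the 300s and for Gamt and Arg2 in the 500s, and none of these passed.
The KW6002 effect with cisplatin minus the effect without it was tested as an interaction. It passed for 6 of the 8 genes, 5 higher and 1 lower, beside 22.8% and 19.9% of all genes. Gatm had the largest difference, a log2 value of 2.74 (SE 0.15, adjusted p = 3.67e-11), ahead of Ass1 at 1.74 (SE 0.16) and Asl at 1.72 (SE 0.15). Arg2 differed by -2.13 (SE 0.30, adjusted p = 6.57e-06). These 4 were called, beside 8.58% of all genes. Sat1 at 0.43 (SE 0.10) and Oat at 0.40 (SE 0.08) passed with smaller values. Gamt, at -0.08 (SE 0.23, adjusted p = 0.820), and Odc1, at 0.47 (SE 0.29, adjusted p = 0.203), did not pass. Odc1 passed without KW6002 replicate 6, its highest mouse (log2 value 0.74, adjusted p = 0.00793).

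The other genes of the pathways moved in both directions. Of 47 genes listed by role, 42 were tested, and 16 were higher, 20 lower, and 6 did not pass in cisplatin against vehicle, where 34.6% of all genes were higher and 35.9% lower. When KW6002 was added, 17 were higher, 11 lower, and 14 did not pass, beside 28.6% and 27.2% of all genes. Counts by role are descriptions of few genes each and were not tested. For KW6002 alone 0 of 42 passed. Their median log2 fold change with cisplatin was -0.14. Ckm, Ckmt2, Cps1, and Amd2 fell below the filter on low counts, and Otc was not among the genes of the count table.
Of 3 tested genes of creatine handling, 2 fell and 1 rose with cisplatin. The creatine transporter Slc6a8 went from 314 ± 33.7 (SD, n = 5) to 246 ± 14.8 (SD, n = 5) CPM with cisplatin (log2 fold change -0.35, SE 0.07, adjusted p = 5.95e-05) and to 343 ± 24.7 (SD, n = 6) in co-treated mice. The brain-type creatine kinase Ckb fell more (log2 fold change -1.45, SE 0.17, adjusted p = 9.88e-08). The mitochondrial kinase Ckmt1 rose slightly, by 0.29 (SE 0.05, adjusted p = 2.88e-05).
Among 6 tested genes of citrulline and the urea cycle, 3 fell and 2 rose with cisplatin. The mitochondrial ornithine carrier Slc25a15 fell (log2 fold change -0.74, SE 0.07) and, with KW6002 added, reached 239 ± 23.8 (SD, n = 6) CPM against 216 ± 8.64 (SD, n = 5) with vehicle, a difference that did not pass (adjusted p = 0.0591). The aspartate-glutamate carrier Slc25a13, which feeds Ass1 with aspartate, was called lower (log2 fold change -1.19, SE 0.07). Nags was called higher (log2 fold change 1.97, SE 0.35) at no more than 0.42 CPM in the mean of any group, where few counts stand behind it, and its exons share 443 bases with a gene on the other strand.

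**Figure D3:**
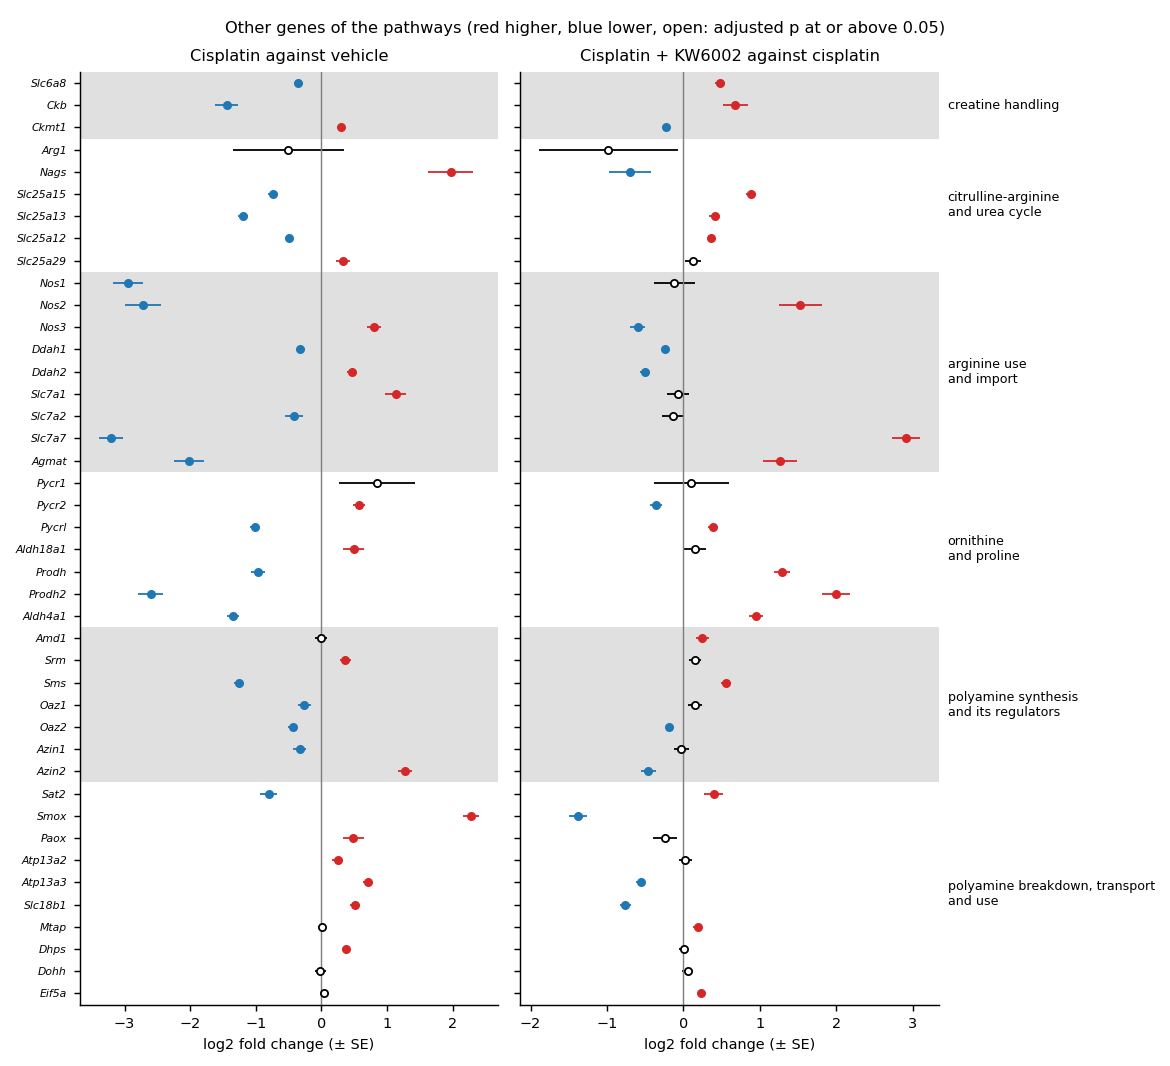
Log2 fold changes with SE of the 42 tested pathway genes outside the 8, grouped by role, for cisplatin against vehicle and for KW6002 added to cisplatin. Red marks higher and blue lower at an adjusted p below 0.05, and open points did not pass. Slc7a7 has the lowest value with cisplatin (-3.21) and the highest with KW6002 added (2.92).

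Among 9 genes of arginine use and import, 6 fell and 3 rose with cisplatin. Slc7a7, the exit route of basic amino acids across the basolateral membrane, went from 266 ± 47.4 (SD, n = 5) to 28.8 ± 11.2 (SD, n = 5) CPM (log2 fold change -3.21, SE 0.19, adjusted p = 6.96e-13). In co-treated mice it stood at 217 ± 29.0 (SD, n = 6) CPM, and the difference from vehicle did not pass (log2 fold change -0.29, SE 0.16, adjusted p = 0.125). Slc7a7 and Nos1 share exonic bases with genes on the other strand. The importer Slc7a1 was called higher with cisplatin (log2 fold change 1.13, SE 0.16) and did not pass with KW6002 added (-0.07, SE 0.15, adjusted p = 0.712). The nitric oxide synthases Nos1 (log2 fold change -2.95, SE 0.23) and Nos2 (-2.72, SE 0.28) were called lower from mean levels of 2.37 and 1.46 CPM, and with KW6002 added Nos2 rose by 1.53 (SE 0.28) whereas Nos1 did not pass (-0.12, SE 0.26). Agmat was called lower at low levels (log2 fold change -2.02, SE 0.23), and Ddah1, which clears methylated arginines, fell by 0.32 on the log2 scale (SE 0.05).
Of 7 genes of ornithine and proline, 4 fell and 2 rose. The proline oxidase Prodh went from 364 ± 8.31 (SD, n = 5) to 185 ± 41.8 (SD, n = 5) CPM with cisplatin and to 453 ± 25.4 (SD, n = 6) in co-treated mice, above vehicle (log2 fold change 0.32, SE 0.10, adjusted p = 0.0102). Prodh2 (log2 fold change -2.60, SE 0.19), Aldh4a1 (-1.35, SE 0.10), and Pycrl (-1.02, SE 0.07) were called lower with cisplatin, and each rose when KW6002 was added, by 2.00 (SE 0.18), 0.95 (SE 0.09), and 0.39 (SE 0.07). Aldh4a1 shares exonic bases with a gene on the same strand, so its counts are less certain.
Of 7 polyamine genes of synthesis and its regulators, 4 fell and 2 rose with cisplatin, and of 10 genes of breakdown, transport, and use, 6 rose and 1 fell. Spermine synthase (Sms) was called lower (log2 fold change -1.26, SE 0.07, adjusted p = 1.82e-13). The falls of antizyme Oaz1 (-0.26, SE 0.09, adjusted p = 0.0172) and the antizyme inhibitor Azin1 (-0.33, SE 0.10, adjusted p = 0.00635) passed and were smaller. Azin2 was called higher (log2 fold change 1.28, SE 0.11). Spermine oxidase (Smox) was called higher, from 6.70 ± 0.980 (SD, n = 5) to 32.5 ± 6.48 (SD, n = 5) CPM (log2 fold change 2.28, SE 0.13, adjusted p = 3.36e-13), and lower with KW6002 added, to 12.5 ± 1.61 (SD, n = 6) CPM (log2 fold change -1.38, SE 0.11). The transporter Atp13a3 rose by 0.71 (SE 0.07) and fell by 0.56 (SE 0.06) with KW6002 added. Eif5a, which carries the spermidine-derived residue hypusine, did not pass with cisplatin (0.05, SE 0.04, adjusted p = 0.347).

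Paired enzymes did not keep their proportions. The ratio of CPM was taken within each mouse, and the log2 ratios were compared by a two-sided exact permutation test, adjusted over 12 tests, where the smallest unadjusted p is 0.00794 for 5 against 5 mice and 0.00433 for 6 against 5.
Gatm stood at a geometric mean of 52.0 times the CPM of Gamt with vehicle, 34.9 times with KW6002, 4.03 times with cisplatin, and 19.8 times with both. In log2 units the ratio was 5.70 ± 0.20 (SD, n = 5) with vehicle and 2.01 ± 0.26 (SD, n = 5) with cisplatin. The difference of -3.69 did not overlap between groups (exact permutation test, adjusted p = 0.0136). The KW6002 difference in its absence was -0.58 (exact permutation test, adjusted p = 0.0130), with -0.62 within the 300s and -0.60 within the 500s. For KW6002 added to cisplatin the difference was 2.29 (exact permutation test, adjusted p = 0.0130).
The ratio of Ass1 to Asl moved far less, from a geometric mean of 3.18 with vehicle to 2.69 with cisplatin, a log2 difference of -0.24 (exact permutation test, adjusted p = 0.0136). The differences for KW6002, 0.17 with cisplatin and 0.15 without, had adjusted p-values of 0.0346 and 0.0260 by the exact permutation test with overlapping groups. Both rose above 0.05 when single mice were left out, for any 1 of vehicle replicates 2, 3, and 4 in the comparison without cisplatin (adjusted p = 0.0508) and for 8 of the 11 mice in the other, at up to 0.0762. The difference without cisplatin was 0.22 within the 300s, without overlap, and 0.079 within the 500s, with overlap.
Odc1 stood at 1.16 times the CPM of Sat1 with vehicle and 0.213 times with cisplatin, a log2 difference of -2.44 (exact permutation test, adjusted p = 0.0136). In co-treated mice it was 0.247 times, and the difference from cisplatin of 0.21 did not pass (exact permutation test, adjusted p = 0.130). It passed when cisplatin replicate 1 was left out (0.30, adjusted p = 0.0381). Without cisplatin the KW6002 difference was 0.052 and did not pass, with -0.28 within the 300s and 0.31 within the 500s.

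**Figure D4:**
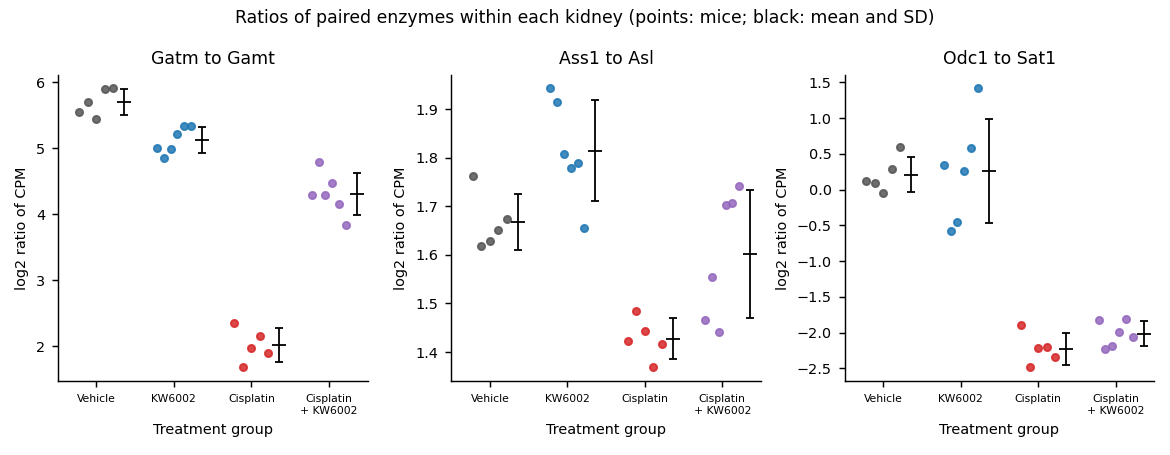
Log2 ratio of CPM for Gatm to Gamt, Ass1 to Asl, and Odc1 to Sat1 within each mouse, by treatment group. Points are mice and black bars the mean and SD. The Gatm to Gamt ratio is fully apart between vehicle and cisplatin mice, and the Odc1 to Sat1 ratio is low in both groups given cisplatin.

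Since all of these genes were measured in whole kidney, each was also set against the mean log2 CPM of the 10 proximal tubule markers in the same mouse. That mean was 10.53 ± 0.06 (SD, n = 5) with vehicle, 10.54 ± 0.07 (SD, n = 6) with KW6002, 7.80 ± 0.39 (SD, n = 5) with cisplatin, and 9.34 ± 0.27 (SD, n = 6) with both. Differences were compared by a two-sided exact permutation test, adjusted over 32 tests.
Relative to the markers, Gatm was lower with cisplatin by a log2 difference of -1.97 (exact permutation test, adjusted p = 0.0146), without overlap between groups. It was higher by 0.77 with KW6002 added (exact permutation test, adjusted p = 0.0139). With the median of the markers in place of their mean these values were -3.46 and 1.74. In mice without cisplatin it was lower with KW6002 by -0.45 (exact permutation test, adjusted p = 0.0146), and -0.56 with the median.
Arg2 was higher relative to the markers by 8.19 with cisplatin and lower by -3.35 with KW6002 added. Sat1 and Oat were higher with cisplatin by 3.45 and 2.31, at an adjusted p of 0.0146 each by the exact permutation test. These calls for cisplatin held with the median, at 6.71, 1.97, and 0.83. The lower values of Sat1 (-1.02) and Oat (-1.18) with KW6002 added did not, at -0.037 and -0.20 with the median.
For Ass1, Asl, and Odc1 the direction depended on the summary of the markers. With the mean they were higher than the markers by 0.39, 0.63, and 1.01 in cisplatin against vehicle mice, and with the median the differences were -1.10, -0.86, and -0.47. Ass1 overlapped between the groups (exact permutation test, adjusted p = 0.0484), and its call was lost without any 1 of vehicle replicates 3, 4, and 5 or cisplatin replicates 1 to 4, at values between 0.32 and 0.40. Within the 500s, with 2 vehicle mice, the Ass1 difference from the mean of the markers was 0.62, without overlap. Gamt was higher by 1.72 with the mean and by 0.23, not passing, with the median. With KW6002 added to cisplatin, Ass1 and Asl did not pass with the mean, at 0.10 and -0.075. With the median they passed, at 1.08 and 0.90. Odc1 (-0.80) and Gamt (-1.53) were lower with the mean and passed. With the median Gamt passed at -0.55, and Odc1, at 0.17, did not. The markers themselves fell unequally: Slc7a13, an amino acid transporter of the late proximal tubule, went from 864 to 6.37 CPM in the group means, and Slc13a3, a dicarboxylate transporter, from 889 to 655 CPM.

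**Figure D5:**
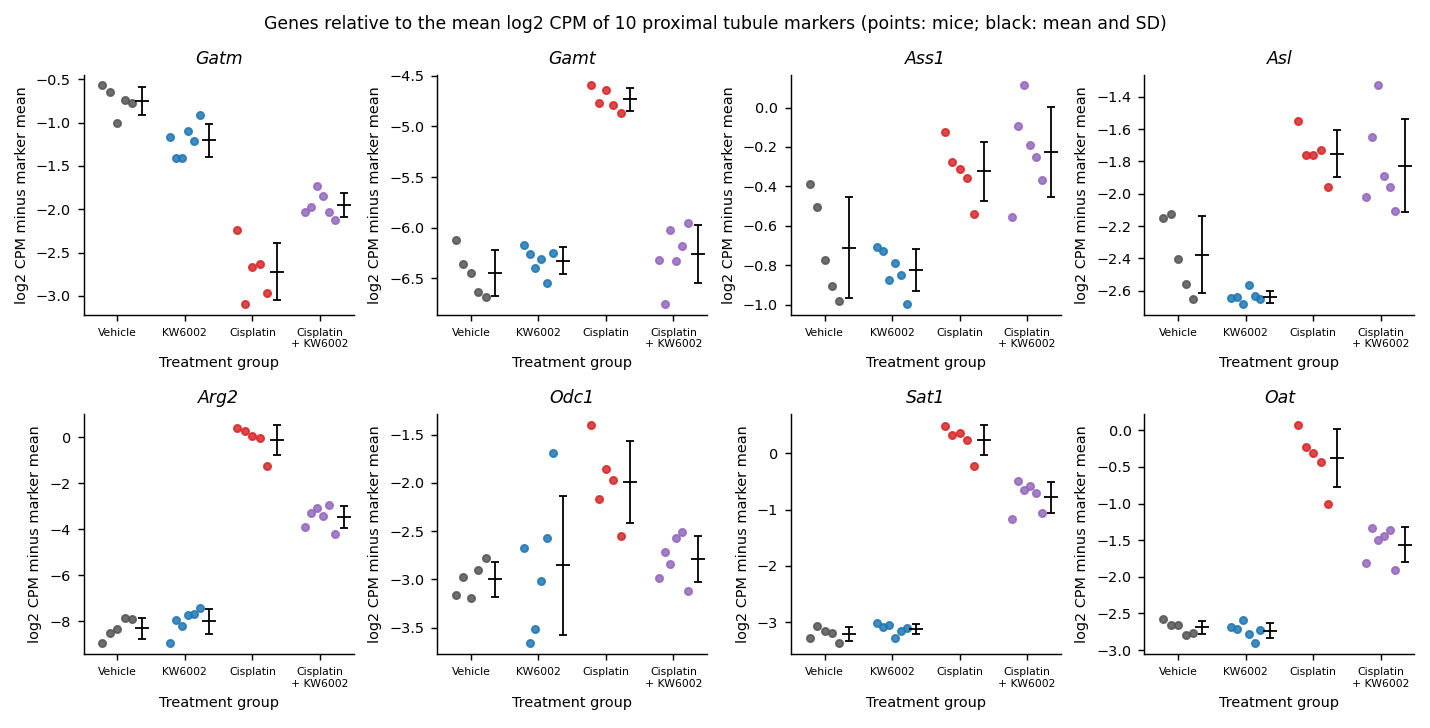
Log2 CPM of each gene minus the mean log2 CPM of 10 proximal tubule markers in the same mouse, by treatment group. Points are mice and black bars the mean and SD. Gatm is lower than vehicle in every cisplatin mouse, and Arg2, Sat1, and Oat are higher.

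The genes whose course over the 22 mice lay closest to each of the 8 were found among 10240 tested genes whose log2 CPM averaged 3 or more, by the root mean square (RMS) difference of log2 CPM from the vehicle mean. This is a description of likeness in these libraries. Closest to Gatm were Aspdh (RMS 0.35) and Hsd3b2 (0.39). Ass1 lay close to Nox4 (0.17) and to Ggt1 (0.18), a brush border enzyme, and Asl to Slc7a9 (0.15), the luminal carrier of cystine and basic amino acids, and Asb9 (0.16).
Gamt lay closest to Slc22a6 (0.20), which is among the proximal tubule markers, and the gluconeogenic enzyme Fbp1 (0.22). Arg2 was nearest to Btg2 (0.46), a gene induced by p53, and Ces2e (0.52), the largest distances of the 8. Odc1 was nearest to B4galt5 and Hsf2bp (0.28 each), Sat1 to Gm49759 (0.15) and the efflux transporter Abcc2 (0.17), and Oat to Psmg1 (0.08) and Men1 (0.08).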

How the data were processed

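Kidneys of 22 mice in 4 groups were profiled. The authors prepared stranded mRNA libraries, mapped single reads to mm10 with STAR, and counted them with HTSeq 0.6.1p1. The deposited values are raw counts of reads for each gene in each library, not normalized by the authors. Another 66 columns carry neither header nor values and were left aside.

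Symbols, positions, and exon lengths were taken from GENCODE M21 (same build), and promoter windows from RefSeq. Genes were kept by filterByExpr (10 counts at the median library size in at least 5 libraries), which left 17131 genes with 99.9% of the counts. Counts were fitted with edgeR 4.0.16 in R 4.3.3 (TMM, 1 mean per group, quasi-likelihood F tests, Benjamini-Hochberg adjustment). The biological coefficient of variation was 0.129. Library totals of 26471762 to 40510754 limit precision mainly for genes below 1 CPM. Ratios were tested in Python with SciPy by exact permutation. Steps were tested on simulated data. P-values set the differences between groups against the spread between mice.

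The 8 genes and all lists were chosen with earlier results of these data known. Named pathway genes are the 2 of highest mean CPM in each role and every gene called in cisplatin against vehicle or with KW6002 added. Cell type marker lists covered 15 types. Alternatives were DESeq2 1.42.0, other scalings and filters, the groups compared only, a replicate block, the label series, a fat marker covariate, other thresholds, and each library left out.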

Additional observations from a re-analysis of the deposited data

Results flagged for a closer look

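For 6 of the 8 genes the effect of KW6002 with cisplatin differed from its effect without cisplatin, by the interaction term of the edgeR fit. Of all genes tested, 22.8% were higher and 19.9% lower by this term. The difference in log2 units was 2.74 for Gatm (adjusted p = 3.67e-11), 1.74 for Ass1 (adjusted p = 1.92e-08), 1.72 for Asl (adjusted p = 1.42e-08), -2.13 for Arg2 (adjusted p = 6.57e-06), 0.43 for Sat1 (adjusted p = 0.00184), and 0.40 for Oat (adjusted p = 0.000533).

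In 3 of 32 groups of values (8 genes in 4 groups) 1 mouse lay far from the others by Dixon's ratio, where chance gives about 1 in 20. These were cisplatin replicate 2 for Odc1 (49.1 CPM, the lowest, ratio 0.747), the same mouse for Oat (188 CPM, the highest, ratio 0.897), and co-treated replicate 3 for Oat (194 CPM, the lowest, ratio 0.764).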

How the results depend on the processing

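The log2 fold changes of the 8 genes in 5 comparisons were refitted under each setting, and 904 of these values kept their direction and their side of the threshold, 12 turned direction, and 4 came to pass. None of the values that turned had passed. For Gamt with KW6002 added to cisplatin the values were -0.0084 with library size scaling, -0.044 with the replicate block, and -0.12 to 0.19 with single mice left out. For the Gamt interaction they were 0.059 with the fat marker covariate and -0.25 to 0.059 with single mice left out. Oat in co-treated against vehicle mice was 0.10 with library size scaling and 0.027 with the label series as a covariate. For KW6002 alone, Ass1 was 0.034 within the 500s, and Odc1 was -0.053 and Oat 0.029 within the 300s, a restriction added after seeing the data. The Odc1 interaction passed with the label series as a covariate (0.59) and without KW6002 replicate 6.

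At an adjusted p under 0.05 without a fold threshold, 12085 genes were called for cisplatin, 9564 for KW6002 added to it, 3 for KW6002 alone, 10222 for co-treated against vehicle mice, and 7312 for the interaction. Under the stricter rule with a fold threshold, 4 of the 8 genes passed with KW6002 added and 3 in co-treated against vehicle mice. With at least 10 counts in every library, which leaves fewer genes, 2749, 1043, and 1304 genes were called for cisplatin, KW6002 added, and co-treated against vehicle mice. For KW6002 alone, DESeq2 called 5 genes and passed 1 of the 8 (Gatm), the series covariate gave 4 genes, the 500s alone gave 1, and leaving out single mice gave 0 to 2. The cause was not tested.

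Relative to the median of the markers, the values that turned were Ass1 (-1.10), Asl (-0.86), and Odc1 (-0.47) for cisplatin, Asl (0.90) and Odc1 (0.17) with KW6002 added, Gamt (-0.32), Ass1 (-0.019), and Odc1 (-0.30) in co-treated against vehicle mice, and Sat1 (-0.012) for KW6002 alone, where 2 genes passed in place of 1. These 2 were Gatm (-0.56) and Asl (-0.37). With single mice left out, 1 to 2 genes passed for KW6002 alone and Odc1 ran from -0.085 to 0.31. The ratio of Ass1 to Asl ran from 0.12 to 0.18 for KW6002 alone and 0.15 to 0.21 with cisplatin, and that of Odc1 to Sat1 from -0.18 to 0.22 and 0.15 to 0.30.

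Replicate numbers did not pair the mice: over 31 same-numbered pairs the correlation of deviations ran from -0.34 to 0.52 with a median of 0.033, and 7 of 22 libraries correlated best with their own number. With the replicate block, 4105, 1715, 0, 2296, and 1460 genes were called in the 5 comparisons and 8, 7, 0, 7, and 7 of the 8 genes passed, the added gene being Odc1 in the interaction (0.57, adjusted p = 0.0485 by edgeR).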
